A study of Homo sapiens with 4 samples.

Results

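The SR splicing factors SRSF1 to SRSF10 were read on 46 of the 44988 probe sets that carry 1 gene symbol, and these cover all 10 genes of the family, of 18132 genes named on the array. A probe set is a group of short probes on the array that reads one transcript or a set of related transcripts. Members were chosen by gene name, every probe set was kept, and the family was proposed with earlier results of these arrays known, so the differences below are a description of 4 arrays. The cells were U87MG, a long-established glioblastoma line of human origin, treated for 24 h with 10 µM mycophenolic acid (MPA) and 100 µM guanosine together, with 10 µM MPA alone, with 100 µM guanosine alone, or with DMSO as the control. All 4 conditions shared the same line and serum-containing medium, and each was read on 1 Affymetrix PrimeView array from total RNA. MPA is an inhibitor of IMP dehydrogenase, the gateway enzyme of new guanine nucleotide synthesis. Guanosine supplies guanine nucleotides by the salvage route, past that block.

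SR proteins carry an RNA recognition motif and a tail rich in arginine and serine. They bind exonic enhancers in pre-mRNA, help to recruit the spliceosome to nearby splice sites, and shift the choice of alternative exons with their concentration. Kinases of the SRPK and CLK families phosphorylate the tail and set where in the nucleus the proteins lie. Most SR genes also hold a poison exon, an alternative exon whose inclusion brings in an early stop codon, so that the transcript is degraded by nonsense-mediated decay. RefSeq listed, for 6 of the 10 genes, at least 1 transcript recorded as non-coding. That count includes the intronless SRSF8 and does not show which genes hold a poison exon. Which probe set reads a transcript with or without a poison exon is not given in the sources used here.

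With 1 array a condition there was no replicate spread and no p-value, and nothing shows how far 2 cultures of one condition would differ. Signals are RMA values on the linear scale and differences are on the log2 scale. A probe set entered a comparison when its brighter array reached a floor of 63.0, the median of all non-control values. On this basis 43 of the 46 probe sets were compared, 42 of them at or above the floor on all 4 arrays. The 3 others were below it on every array: SRSF3 probe set 11760279_a_at, SRSF5 probe set 11760242_a_at and SRSF9 probe set 11760259_at. Levels of different probe sets cannot be set against each other, so each is compared with itself across arrays.

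Readings of the treatment were taken from CDKN1A, a cell cycle inhibitor (4961 with MPA, 1649 in the control), from MDM2, the ligase gene that limits p53 (446 with MPA, 205 in the control), from the growth regulator MYC (284 with MPA, 791 in the control) and from IMPDH2, a target of MPA (9168 with MPA, 7120 in the control). With both compounds CDKN1A read 1412, MDM2 223, MYC 779 and IMPDH2 4228. With guanosine alone CDKN1A read 1373, MDM2 224, MYC 827 and IMPDH2 4067. Of 6 glioblastoma line markers, VIM, CD44, NES and GFAP were at or above the floor on all 4 arrays, OLIG2 on 2 and SOX2 on none. No measured leukocyte marker reached the floor (0 of 3). At least 1 array reached it for 2 of 3 endothelial, 2 of 3 epithelial and 3 of 3 neuronal markers. The summed neuronal signal, mostly SNAP25, was 2095 with MPA and 1344 in the control, and it lay at 1426 with guanosine and 1449.6 with both compounds. The summed epithelial signal was 179 with MPA and 151 in the control, and the endothelial one 213 with MPA and 182 in the control. The part of these markers in the results below was not tested. Poly-A spike-ins are transcripts mixed into the RNA ahead of labelling. All 12 of their probe sets read lower with MPA than in the control, by a median log2 difference of -0.29 (range -0.58 to -0.13). They were higher by a median of 0.22 with guanosine and 0.27 with both compounds. Hybridisation controls, added after labelling, had medians of -0.03 with MPA and 0.02 with guanosine over 18 probe sets.

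Against the control, 33 of the 43 SRSF probe sets were lower on the MPA array and 10 were higher, where 51.7% of all probe sets were lower. The 10 higher ones were all 10 compared probe sets of SRSF5. The median log2 difference of the family was -0.43, with the middle of the probe sets between -0.63 and -0.04, against a median of -0.01 over all 23675 probe sets compared. At least 1.5-fold lower were 14 probe sets, or 32.6%, against 7.58% of all probe sets. None was at least 1.5-fold higher (0 of 43, with 4.67% of all probe sets past that size). At least 2-fold lower were 4, from SRSF1, SRSF2 and SRSF8, against 1.51% of all. By mean signal, at least 1.5-fold lower were 0 of 6 SRSF probe sets between the floor and 256 (6.57% of all probe sets there), 2 of 5 between 256 and 512 (10.1% of all), 4 of 10 between 512 and 1024 (9.49%), 3 of 10 between 1024 and 2048 (8.5%) and 4 of 11 from 2048 up (4.55%). SRSF8, whose mean signal lay below the floor, is in none of these groups. The 14 came from 6 genes: 4 probe sets of SRSF10, 3 of SRSF7, 3 of SRSF1, 2 of SRSF2 and the single ones of SRSF4 and SRSF8. The MPA signal of SRSF8 was below the floor, so its difference is only a bound; without it the counts were 13 of 42 at 1.5-fold and 3 of 42 at 2-fold.

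The spike-ins were also lower on the MPA array. When differences were counted from the spike-in median, a setting chosen after the values were seen, 7 SRSF probe sets were still at least 1.5-fold lower with MPA (from SRSF1, SRSF2, SRSF7 and SRSF8, or 6 without SRSF8), against 2.56% of all probe sets. In that setting 4, all of SRSF5, were at least 1.5-fold higher, against 15.5% of all. The family median was then -0.13 and that of all probe sets 0.28. As in any bulk sample, fewer cells of a type and less RNA per cell cannot be told apart.

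**Figure D1:**
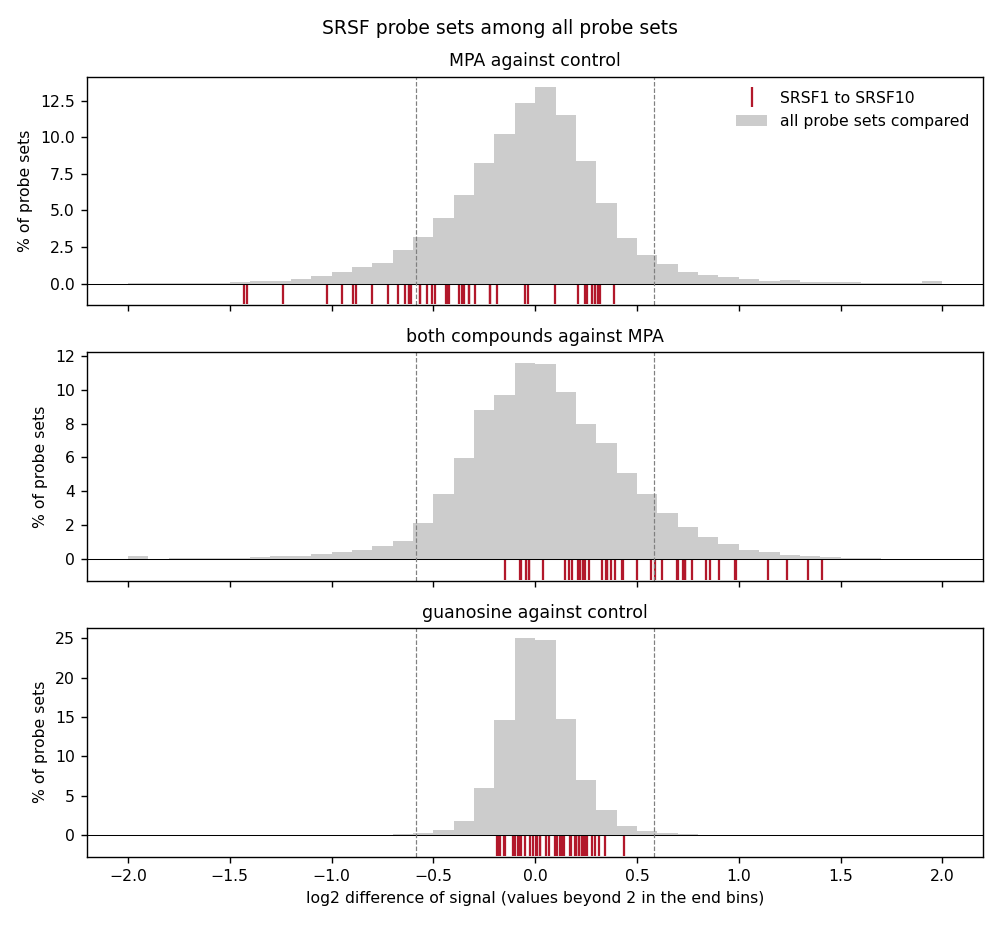
SRSF probe sets among all probe sets in 3 comparisons. Grey bars give the percentage of all compared probe sets in each bin of log2 difference, red ticks the 43 SRSF probe sets, and dashed lines 1.5-fold; with MPA the red ticks reach -1.43 (SRSF8, whose MPA signal is below the floor) and 14 lie left of the dashed line, while with guanosine they lie between -0.19 and 0.44.

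Promoter windows of 300 bases, from 250 before to 50 after the annotated start, were taken from RefSeq (GRCh38.p14). At least 1 was given for 9 of the 10 genes and none for SRSF2. SRSF7 and SRSF8 had 2 entries each, and 1 window a gene was used, the one nearest the outermost start of the gene. Windows are shown for SRSF1 and SRSF7, 2 of the 9 genes that were lower with MPA at every compared probe set. SRSF5, also shown, was higher at every one. Capitals mark matches, on either strand, to 4 short motifs: CACGTG (the E-box bound by MYC and MAX), CCGGAA (the ETS core), TGACG (a CRE core) and GGGCGG (a GC box). The windows lie at chr17:58007197-58007496 (minus strand) for SRSF1, chr2:38751445-38751744 (minus strand) for SRSF7 and chr14:69766892-69767191 (plus strand) for SRSF5.
SRSF1: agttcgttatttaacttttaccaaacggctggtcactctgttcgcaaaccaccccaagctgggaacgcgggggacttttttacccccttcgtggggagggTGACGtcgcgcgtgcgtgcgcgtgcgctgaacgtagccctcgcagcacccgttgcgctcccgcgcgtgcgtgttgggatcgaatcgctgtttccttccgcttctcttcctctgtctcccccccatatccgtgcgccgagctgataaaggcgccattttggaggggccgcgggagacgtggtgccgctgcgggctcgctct
SRSF7: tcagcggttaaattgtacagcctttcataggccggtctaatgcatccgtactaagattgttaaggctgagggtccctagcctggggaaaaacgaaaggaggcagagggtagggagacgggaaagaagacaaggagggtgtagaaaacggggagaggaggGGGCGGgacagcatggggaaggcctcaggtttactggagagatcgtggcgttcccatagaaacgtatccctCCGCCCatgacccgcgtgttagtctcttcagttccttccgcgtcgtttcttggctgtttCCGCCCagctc
SRSF5: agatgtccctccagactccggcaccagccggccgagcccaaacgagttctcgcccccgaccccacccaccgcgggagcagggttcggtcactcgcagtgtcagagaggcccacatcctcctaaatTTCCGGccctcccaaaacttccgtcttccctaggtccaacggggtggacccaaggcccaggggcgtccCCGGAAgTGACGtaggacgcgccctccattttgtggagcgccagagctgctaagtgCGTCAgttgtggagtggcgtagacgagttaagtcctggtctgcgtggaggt
The SRSF1 window held 1 CRE core, the SRSF7 window 3 GC boxes, and the SRSF5 window 2 ETS cores and 2 CRE cores, with no base in 2 matches (0 bases). Over the 9 member windows, CACGTG was in 0, CCGGAA in 2 (SRSF4 and SRSF5), TGACG in 3 (SRSF1, SRSF3 and SRSF5) and GGGCGG in 3 (SRSF4, SRSF6 and SRSF7). Of 27305 promoter windows of the same length, 7.41% held CACGTG, 17.6% CCGGAA, 25.0% TGACG and 44.5% GGGCGG. These matches describe letters in a window and not sites of binding.

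SRSF2, an enhancer-binding SR protein, stood among the lowest of the family with MPA. Its brightest probe set, 11734933_s_at, read 1979 with both compounds, 783 with MPA, 2094 with guanosine and 2087 in the control. A second, 11749302_s_at, read 1291 with both compounds, 549 with MPA, 1384 with guanosine and 1295 in the control. On both probe sets the MPA array was the lowest and the other 3 lay close together, with log2 differences of -1.42 and -1.24 for MPA against control and of -0.08 and -0.0048 for both compounds against control. Both end in _s_at, which by the maker's convention can match transcripts of more than 1 gene. The dimmest SRSF2 probe set, 11761530_x_at, differed by -0.22 with MPA.

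SRSF8 is an intronless gene that arose as a retrocopy of SRSF2, and it has 1 probe set here. It read 70.4 with both compounds, 26.5 with MPA, 66.5 with guanosine and 71.3 in the control. Only the MPA array was below the floor, and the other 3 were just above it. Measured against the floor, the gene was at least 1.13-fold lower with MPA than in the control. Its measured log2 difference of -1.43 is counted above, but its size is uncertain.

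SRSF7, an SR protein with a zinc knuckle that also serves as an adaptor in mRNA export, had 3 bright probe sets and 1 dim one. Probe set 11717293_x_at read 3928 with both compounds, 2103 with MPA, 3839 with guanosine and 3903 in the control. Probe set 11751602_a_at read 3617 with both compounds, 1827 with MPA, 3545 with guanosine and 3524 in the control, and 11751603_x_at read 2975 with both compounds, 1507 with MPA, 2828 with guanosine and 2778 in the control. All 3 had the MPA array well apart and the others within a narrow band, with MPA differences between -0.95 and -0.88. The dim probe set, 11717294_a_at, read 319 with both compounds, 212 with MPA, 343 with guanosine and 270.2 in the control. It was lower with MPA by less (-0.35) and higher with guanosine by 0.34.

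SRSF1, the founding SR protein and a factor often raised in tumours, differed between its probe sets. The brightest, 11727812_s_at, read 4001 with both compounds, 2399.8 with MPA, 4006 with guanosine and 3684 in the control. At 11747684_a_at the signal was 870.2 with both compounds, 394 with MPA, 969 with guanosine and 799 in the control, and at 11758600_s_at it was 496 with both compounds, 277 with MPA, 502 with guanosine and 457 in the control. These 3 were at least 1.5-fold lower with MPA, with log2 differences of -0.62, -1.02 and -0.72. Probe set 11727813_a_at read 598 with both compounds, 388 with MPA, 602 with guanosine and 527 in the control, and 11743269_a_at differed from control by -0.49. The last, 11727811_a_at, read 566 with both compounds, 500.0 with MPA, 604 with guanosine and 512 in the control. There the MPA array was again the lowest but only -0.03 from the control, so the 6 probe sets ranged from -1.02 to -0.03.

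**Figure D2:**
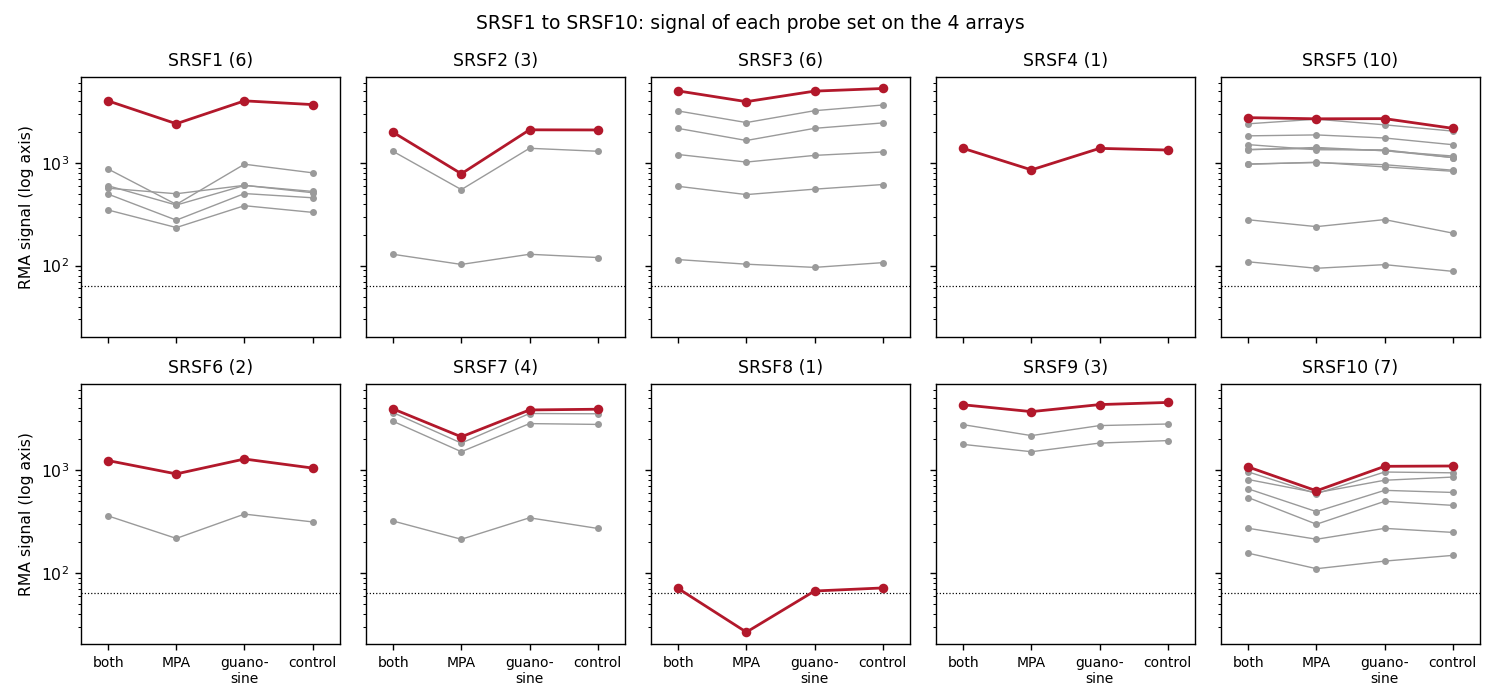
Signal of each compared SRSF probe set on the arrays of both compounds, MPA, guanosine and control, on a log axis, with the number of probe sets after each gene. Red marks the probe set with the highest mean of its gene, grey the others, and the dotted line the floor of 63.0; the MPA point is the lowest in 32 of 43 lines, and the control point is the lowest in all 10 SRSF5 lines. Heights of different lines are not comparable.

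SRSF10 can turn into a general splicing repressor when it is dephosphorylated, as in heat shock and mitosis. Its 7 probe sets were all lower with MPA, from -0.80 to -0.22 with a median of -0.61, and the MPA array was the lowest of the 4 in all 7. The brightest, 11721311_s_at, read 1070.3 with both compounds, 627 with MPA, 1086 with guanosine and 1094 in the control. Probe set 11718505_s_at had signals of 958 with both compounds, 589 with MPA, 956 with guanosine and 939 in the control. The pattern was the same in both, with the MPA array alone set apart. Signals of 655 with both compounds, 394 with MPA, 634 with guanosine and 605 in the control were read at 11721309_x_at. At 11721310_s_at they were 539 with both compounds, 297 with MPA, 496 with guanosine and 453 in the control. SRSF4, one of the longer SR proteins, has 1 probe set, which read 1381 with both compounds, 853 with MPA, 1382 with guanosine and 1331 in the control, an MPA difference of -0.64.

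Smaller differences were seen for SRSF3, SRSF9 and SRSF6, none of whose probe sets reached 1.5-fold with MPA. SRSF3, a short SR protein that links splicing to mRNA export and polyadenylation, read 5002 with both compounds, 3934 with MPA, 4981 with guanosine and 5284 in the control at its brightest probe set. All 6 of its compared probe sets were lower with MPA, from -0.57 to -0.05, and in 5 of 6 the control array was the highest of the 4, as it was in 21.3% of all probe sets. The SRSF3 probe sets 11753650_x_at and 11753649_s_at were the nearest outside the 1.5-fold size, each at -0.57. The nearest inside were SRSF1 probe set 11727812_s_at (-0.62) and SRSF10 probe set 11721310_s_at (-0.61). SRSF9 read 4310.5 with both compounds, 3698 with MPA, 4329.8 with guanosine and 4544 in the control at its brightest probe set, and its 3 compared probe sets differed by -0.38 to -0.30 with MPA. SRSF6 was lower with MPA and higher with guanosine: 11716303_s_at read 1235 with both compounds, 917 with MPA, 1279.7 with guanosine and 1045 in the control, and 11745822_x_at read 358 with both compounds, 216 with MPA, 373 with guanosine and 313 in the control. For these SRSF6 probe sets the guanosine array was the highest and the MPA array the lowest.

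SRSF5, first described as a gene induced in regenerating rat liver, went the other way. Its brightest probe set, 11736130_x_at, read 2749 with both compounds, 2679.7 with MPA, 2689.6 with guanosine and 2164 in the control, and another, 11754349_a_at, read 2396 with both compounds, 2657 with MPA, 2341 with guanosine and 2034 in the control. The control array was the lowest of the 4 in all 10 compared probe sets, against 21.5% of all probe sets, and all 10 read 1 gene and share that control array. The differences from control ranged from 0.20 to 0.43 with both compounds, from 0.10 to 0.39 with MPA and from 0.14 to 0.44 with guanosine. None reached 1.5-fold. The medians were 0.28 with both, 0.29 with MPA and 0.22 with guanosine, and the spike-ins were at 0.27, -0.29 and 0.22 in the same comparisons. For the other 9 genes the MPA array was the lowest in 32 of 33 probe sets, against 43.6% of all probe sets in which it was lowest; the exception was SRSF3 probe set 11723038_at, which read 114 with both compounds, 103 with MPA, 96.1 with guanosine and 107 in the control.

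The comparison of both compounds with MPA bears on guanosine in MPA-treated cells. It shares the MPA array with MPA against control, so the comparisons are not independent and each is given by its own values. Higher with both compounds than with MPA were 37 of 43 SRSF probe sets, against 53.7% of all, and 17 (39.5%) were at least 1.5-fold higher, against 9.17% of all probe sets. None was at least 1.5-fold lower (0, against 4.29% of all). The family median was 0.39 and that of all probe sets 0.03. Among probe sets at or above the floor on all 4 arrays, the log2 difference was highest for SRSF2 (1.34 at 11734933_s_at), followed by SRSF1 (1.14 at 11747684_a_at) and SRSF7 (0.99 at 11751602_a_at) when each gene is taken at its highest probe set. SRSF8, whose MPA signal was below the floor, has no place in that order and was at least 1.12-fold higher; without it, 16 of 42 were at least 1.5-fold higher. All 4 SRSF7 probe sets passed 1.5-fold, as did 4 of 6 for SRSF1 and 4 of 7 for SRSF10. SRSF6 passed it at 11745822_x_at (0.73). SRSF5 lay on both sides of 0, between -0.15 and 0.22. Spike-ins were higher by 0.60 in this comparison. Counted from them, the family median was -0.21 and that of all probe sets -0.57. In that setting 3 SRSF probe sets (2 without SRSF8) were at least 1.5-fold higher, against 0.742% of all. Lower by as much were 6, all of SRSF5, against 48.2% of all.

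The MPA difference in guanosine-treated cells is that of both compounds against guanosine, which has no array in common with MPA against control. The SRSF differences lay between -0.16 and 0.26 with a median of 0.01, and none reached 1.5-fold in either direction (0 higher and 0 lower, against 0.00435% and 0.0305% of all). Spike-ins were higher by 0.07 in this comparison, and counted from them the family median was -0.06, as was that of all probe sets. The 14 probe sets that were at least 1.5-fold lower with MPA alone had differences between -0.16 and 0.12 here, against -1.43 (SRSF8, below the floor with MPA) to -0.61 in MPA against control. SRSF2 stood at -0.08 and -0.10, SRSF7 between -0.10 and 0.07, SRSF1 between -0.16 and -0.0019, and SRSF10 between -0.02 and 0.26. The highest value of SRSF10 was that of 11751594_s_at, which read 155 with both compounds, 109.6 with MPA, 130.0 with guanosine and 148 in the control.

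**Figure D3:**
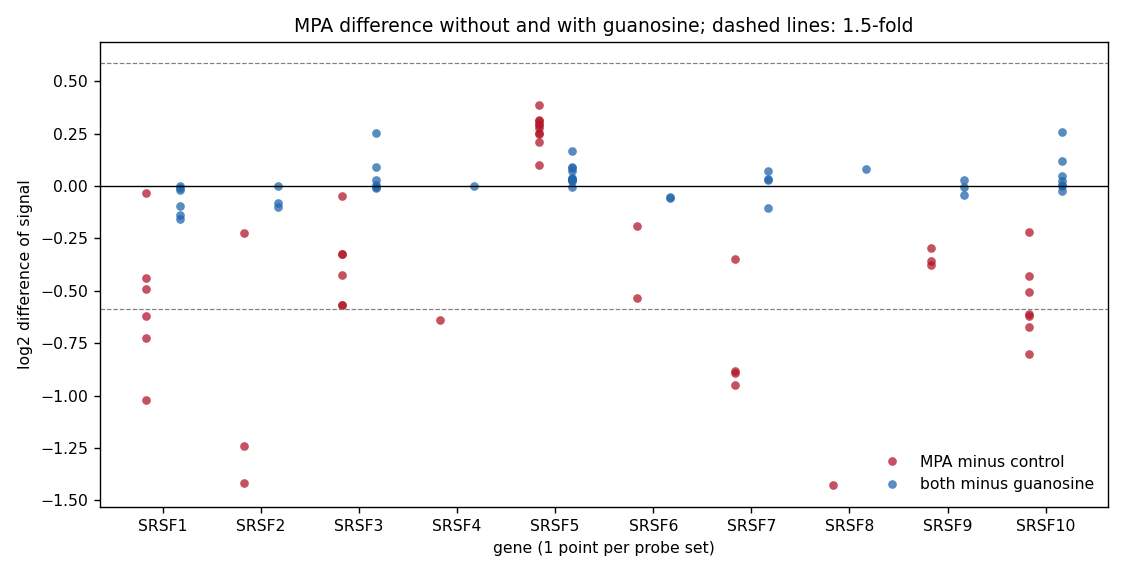
Log2 difference of MPA minus control (red, left point of each pair) and of both compounds minus guanosine (blue, right) for each compared SRSF probe set, by gene. Dashed lines mark 1.5-fold; the red points of 9 genes lie below 0 and those of SRSF5 above it, and the blue points of all genes lie between -0.16 and 0.26.

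Guanosine against control asks what the nucleoside did alone. No SRSF probe set reached 1.5-fold (0 of 43, with 0.406% of all probe sets past it upward and 0.156% downward). SRSF5, SRSF1, SRSF6 and SRSF2 were higher at every compared probe set (51.3% of all probe sets were higher), with medians of 0.22, 0.20, 0.27 and 0.10. The single probe set of SRSF4 was higher by 0.05. SRSF3 (median -0.15) and SRSF9 (median -0.07) were lower at every one (48.4% of all were lower), and the single probe set of SRSF8 differed by -0.10. SRSF7 (median 0.02) and SRSF10 (median 0.03) had probe sets on both sides of 0. The family median was 0.11, below the 0.22 of the spike-ins, and counted from these it was -0.12, where that of all probe sets was -0.22. Both compounds against control shares the control array with this comparison and gave a family median of 0.10 with a range of -0.19 to 0.43. No SRSF probe set passed 1.5-fold there (0, against 0.489% of all upward and 0.143% downward), and its median counted from the spike-ins was -0.16, where that of all probe sets was -0.25. With 1 probe set a gene the median of both compounds against control was -0.0044, with 5 genes higher and 5 lower, so its sign depends on how probe sets are weighted.

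The same comparison was made for other genes of the splicing machinery, with 1 probe set a gene, the one with the highest mean. On this scale 6 of the 10 SRSF genes were at least 1.5-fold lower with MPA, against 7.31% of 11204 genes (5 of 9 without SRSF8), and none was higher by that much (0, against 5.31%). Among 11 compared genes for other RS-domain splicing proteins, all 11 were lower (49.1% of all genes were lower) with a median of -0.42. Of these, 1 passed 1.5-fold, RSRC1 at -0.91, near the 7.31% of all genes lower by that much. SREK1 was nearest to the control at -0.04. Of 23 hnRNP genes, whose proteins often oppose SR proteins at exons, 21 were lower, with a median of -0.41, and 7 of them passed 1.5-fold. SYNCRIP was lowest at -1.42 and HNRNPA3 highest at 0.33. Of 29 core spliceosome genes, 26 were lower and 5 passed 1.5-fold. Their median was -0.28, and they ran from the helicase gene DHX15 at -0.88 to SNRPD2 at 0.06. The spike-in median was -0.29 in this comparison, close to that of the core spliceosome genes, and these lists were not counted from it.

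For genes that modify or carry SR proteins and for those of nonsense-mediated decay the medians lay closer to 0, and the spike-ins stood at -0.29 in the same comparison. The 12 genes for SR protein kinases, phosphatase and import had a median of -0.09, with 8 lower and 4 higher. SRPK1, a kinase that phosphorylates SR tails in the cytoplasm, read 392 with both compounds, 231 with MPA, 364 with guanosine and 386 in the control. At -0.74 it alone of the 12 passed 1.5-fold, where 7.31% of all genes were lower by that much and 5.31% higher. SRPK3 was highest at 0.37, with its control signal of 62.2 below the floor. Of 11 nonsense-mediated decay genes, 7 were lower and 4 higher with MPA, with a median of -0.19 between MAGOH at -0.52 and SMG6 at 0.26. None passed 1.5-fold (0 in either direction, against the same 7.31% lower and 5.31% higher of all genes). With both compounds against guanosine, the medians of these 5 lists lay between -0.03 and 0.05, and no gene in them passed 1.5-fold (0 in each direction, against 0 and 0.0184% of all genes).

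**Figure D4:**
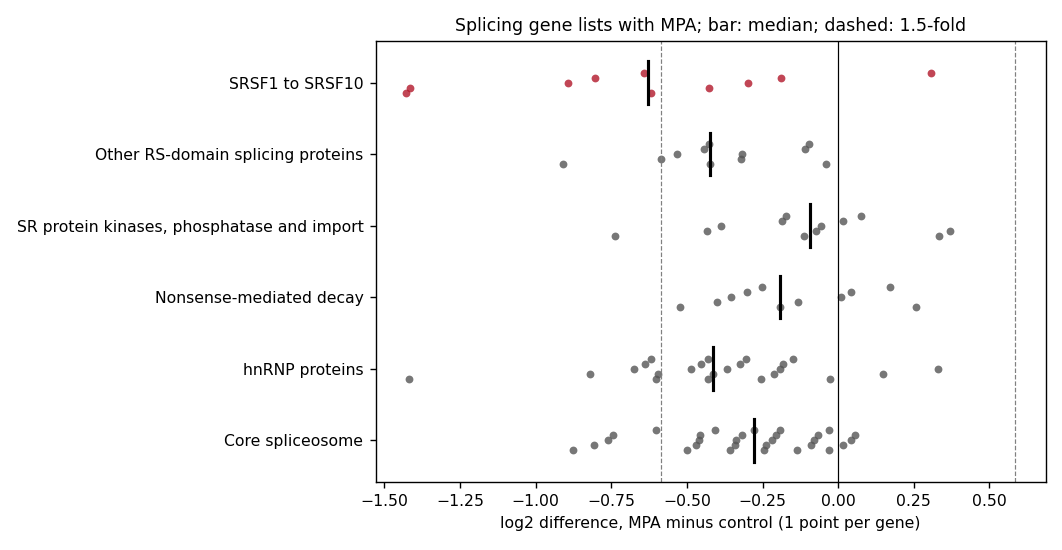
Log2 difference of MPA minus control for the SRSF genes (red) and for 5 lists of other splicing-related genes (grey), 1 point per gene with its vertical place spread for legibility. Bars give medians, -0.63 for the SRSF genes and between -0.42 and -0.09 for the other lists, and dashed lines 1.5-fold.

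By pattern across the arrays, measured as Euclidean distance over the 3 differences from control, SRSF2 was nearest, among 10416 other genes above the floor on all arrays, to FEN1 (0.06), MCM4 (0.09), MYC (0.10), MCM6 (0.10) and B3GNT5 (0.13). The rule for this comparison took the member with the largest measured MPA difference at its brightest probe set, which is SRSF8, but its MPA signal was below the floor, so its distances are not given, and SRSF2 was taken after its values were seen. SRSF7 and SRSF5 were also chosen afterwards. For SRSF7 the nearest were NXT1, B4GALT2, SMC6, MLKL and POLE3, at distances of 0.04 to 0.05. For SRSF5 they were ZMYM2, GTF2H5, TUBGCP6, STX3 and BBS1, at distances of 0.04 to 0.05. All of these rest on 4 arrays with 1 shared control.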

How the data were processed

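U87MG cells were read on 4 PrimeView arrays, 1 a condition. The deposited values are probe set intensity on the linear scale, made by RMA per the labels; software and version are not stated in the sources used here. RMA normalises arrays to one distribution, so a change in total mRNA per cell is not visible, and the number of arrays limits precision.

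Log2 was taken first (pandas 2.3.3, numpy 2.4.6). Probe sets were named from the platform table: 44988 of 49395 had 1 symbol outside the 102 controls, 1832 several and 2569 were not listed. All 46 SRSF probe sets kept their symbol through Entrez ID in RefSeq, and 0 multi-symbol probe sets named a member. By suffix, 17 end in _s_at, which by the maker's convention can match transcripts of several genes, 11 in _x_at, which can bind similar sequences, and 14 in _a_at, which match several transcripts of one gene. Differences, counts at 1.5-fold and 2-fold, and medians were computed for 5 comparisons beside the same over all probe sets; no test was possible. Counting was tested on simulated data with known changes. By the rule for named values, these are each gene's brightest probe set and probe sets past 1.5-fold; other named probe sets of SRSF1, SRSF2, SRSF3, SRSF5 and SRSF10 were added after their values were seen; in each context list the highest and lowest gene are named. The members, the 5 lists and the motifs were chosen with earlier results of these data known. Alternatives were other floors, cyclic loess (limma 3.58.1, 3 iterations), 1 value a gene, suffix filters, 2-fold and, added later, spike-in centring.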

Additional observations from a re-analysis of the deposited data

Results flagged for a closer look

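At the brightest probe set of 3 genes, the MPA difference had opposite signs without and with guanosine. Each rests on 1 array a condition and the difference was not tested. The MPA difference with guanosine minus that without was 0.43 for SRSF3 (0.0060 and -0.43), 0.93 for SRSF7 (0.03 and -0.89) and, with its MPA signal set to the floor, at least 0.26 for SRSF8 (0.08, and -0.18 or lower). The values with guanosine present are close to 0 in all 3. Spike-ins were higher by a median of 0.07 in that comparison, above the values of SRSF3 and SRSF7, so the sign of these depends on the centring.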

How the results depend on the processing

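Of 65 recomputed family values under the alternatives other than spike-in centring, 52 stayed within 1.5 times the count or 0.11 of the median, but 21 of these are counts of 0 that stayed 0, and 31 of the other 44 values stayed within those limits; 0.11 is the SD of both compounds against guanosine over all probe sets. With 1 probe set a gene, the medians were -0.63 (MPA against control), -0.0031 (guanosine against control, turned in sign), -0.0044 (both against control, turned in sign) and 0.72 (both against MPA), with 6 and 6 genes past 1.5-fold in the first and last. Taking each gene's median probe set, they were -0.58 and 0.69 for the MPA comparison and for both against MPA, with 5 and 6 past it. Without _x_at and _s_at, 15 probe sets were left, 4 and 6 past 1.5-fold; at 2-fold the counts were 4 and 4. SRSF5 holds 10 of the 43 probe sets and 1 of the 10 genes. Counted from the spike-ins, the medians were -0.13 (MPA), -0.12 (guanosine), -0.16 (both against control), -0.21 (both against MPA, with 9 past 1.5-fold) and -0.06 (both against guanosine). All but the first turned in sign, and this setting subtracts 1 constant from every probe set. The median of both against guanosine, 0.0060 as reported, was -0.0012 with 1 probe set a gene. Cyclic loess moved the MPA differences of the 43 probe sets by at most 0.08 and changed the sign of 1. With it 10 were at least 1.5-fold lower with MPA than in the control, against 14 as reported. For both compounds against MPA, 15 were at least 1.5-fold higher, against 17 as reported. At their brightest probe sets, SRSF1 (-0.55) and SRSF4 (-0.57) then fell short of 1.5-fold with MPA. No paired analysis was possible because each condition has 1 array. Signals near or below the floor, as for SRSF8, limit the size of a difference.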
